A study of Homo sapiens with 6 samples.

Results

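The genes described here are 9 enzymes of the tricarboxylic acid (TCA) cycle and of its exit to phosphoenolpyruvate: CS, IDH3A, IDH2, OGDH, SUCLG1, SDHA, FH, MDH2 and PCK2. They were chosen by gene symbol, 1 row each, and all 9 were found among 16670 genes with values. The cells were A549, an established line from a human non-small cell lung cancer. All 6 cultures had first been made senescent by 1 week of alisertib, which blocks the Aurora A kinase of mitosis, so the control group carried that drug as well. The untreated group (n = 3) received nothing further, and the salinomycin group (n = 3) received 2.5 µM salinomycin, a polyether ionophore that moves alkali metal ions across membranes, for 48 h. The libraries are labelled as biological replicates of 1 cell line, and cultures without alisertib were not analysed here.

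The TCA cycle runs in the mitochondrial matrix. It takes in acetyl-CoA, releases carbon dioxide and passes electrons to the respiratory chain, and its intermediates also leave it as building blocks for lipids, amino acids and glucose. Every cycle enzyme is encoded in the nucleus and imported. Mitochondrial phosphoenolpyruvate carboxykinase, the product of PCK2, is not a step of the cycle: it draws off oxaloacetate as phosphoenolpyruvate, and the gene is a known target of the stress-induced transcription factor ATF4.

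Promoter sequence was available for 8 of the 9 genes (all except OGDH) in a RefSeq table on GRCh38.p14, as the 250 bases before 1 annotated start for each of the 8. For all 8 that start lay inside the gene's outermost GENCODE span, so a window need not lie before the outermost start. The distance was largest for IDH3A (start at 78149362, span from 78131498) and IDH2 (start at 90100621, span from 90102504 on the minus strand). Matches to ATTGG or its complement CCAAT, the letters bound by the factor NF-Y, lay in 3 of the 8 promoters. CS and FH held 2 each and PCK2 held 1. These are shown because they are the only matches among the 8 promoters for the 4 motifs searched. Capitals mark the match, and bases that GENCODE annotates as exon are left out of the CS and FH stretches (CS, chr12:56300393-56300580, minus strand; FH, chr1:241519762-241520005, minus strand), while for PCK2 a window of 25 bases is given (chr14:24094108-24094132, plus strand). That window lies wholly in annotated exon, as do 246 of the 250 bases searched for PCK2.

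CS: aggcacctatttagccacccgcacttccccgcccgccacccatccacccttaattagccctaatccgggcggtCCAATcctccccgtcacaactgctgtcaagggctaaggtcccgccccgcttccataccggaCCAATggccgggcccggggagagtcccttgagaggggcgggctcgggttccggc

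FH: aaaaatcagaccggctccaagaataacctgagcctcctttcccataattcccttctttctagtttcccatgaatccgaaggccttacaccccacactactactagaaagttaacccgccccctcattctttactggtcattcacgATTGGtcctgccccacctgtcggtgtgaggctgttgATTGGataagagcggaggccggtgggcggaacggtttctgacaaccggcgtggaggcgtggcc

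PCK2: acccagtcctCCAATgggagagatg

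The matches began 177 and 116 bases before the start of CS, 105 and 69 before that of FH and 193 before that of PCK2. The same letters occurred in 32.6% of the 19165 promoters of genes in the table, and 10.6% had 2 or more matches. The 3 of 8 promoters with a match here are near the first of these shares. On both strands, TGATGNAA (a composite of ATF4 and C/EBP half-sites), CGCATGCG (the core of the NRF1 motif) and TCAAGGTCA (the ERR motif) had no match in any of the 8 windows. They occurred in 1.99%, 2.36% and 0.183% of those promoters. No 2 of the matches overlapped, and a match describes the letters of the window only. Other forms of these motifs were not searched, so a window without a match can still hold a related site.

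With salinomycin 7 of the 9 genes rose and 2 fell, at an adjusted p under 0.05 from limma. PCK2 rose 5.97-fold and OGDH, the first subunit of the oxoglutarate dehydrogenase complex, 2.86-fold. SUCLG1, MDH2, IDH2, IDH3A and SDHA rose between 1.25-fold and 1.95-fold. CS, which starts the cycle, fell 1.46-fold and FH fell by 16.4%, a call that was lost when only library size was used for scaling. Over all 13088 genes tested, 41.6% were called higher and 40.2% lower, or 81.9% in either direction, so a call by itself is common in this comparison. The 3 libraries of one group lay apart from the 3 of the other for all 9 members, against 83% of all tested genes. The median log2 change was 0.69 over the members and 0.02 over all tested genes. In bulk RNA, a change in the make-up of the cell population and a change in RNA per cell cannot be told apart.

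**Figure D1:**
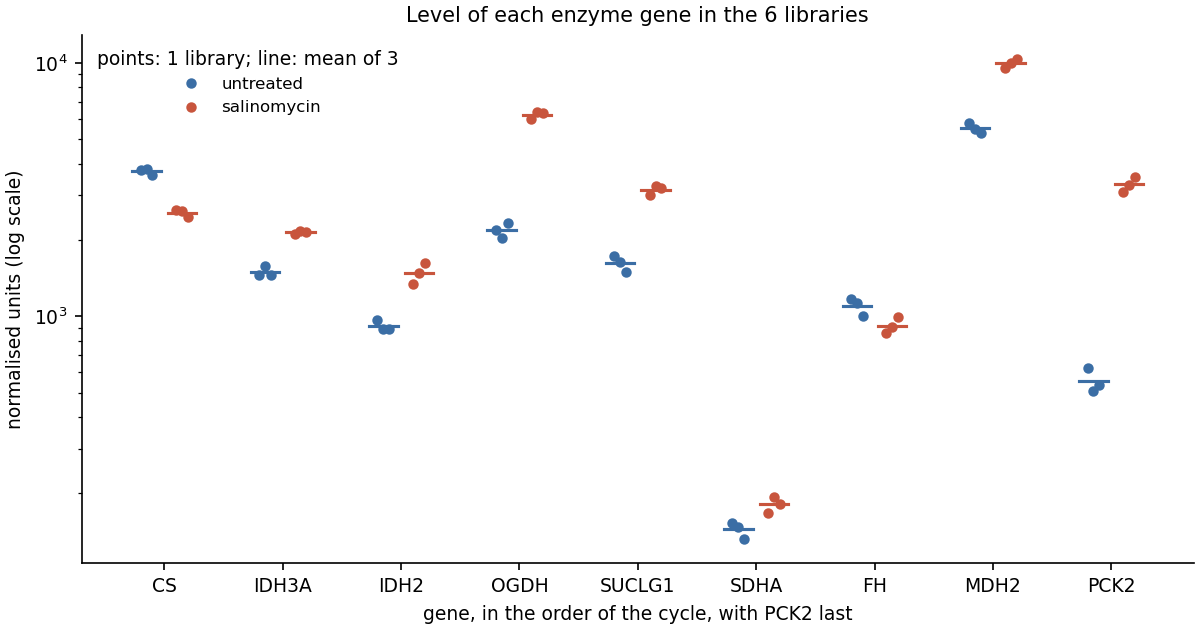
Level of the 9 genes in each of the 6 libraries, in normalised units on a log axis, with untreated libraries in blue, salinomycin libraries in red and the mean of each group as a line. The salinomycin points lie above the untreated points for 7 genes and below them for CS and FH, where for FH the nearest points were 999 and 994 units.

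Levels are given below in normalised units, the deposited value less 1 and scaled by a trimmed mean across libraries, and changes are log2 differences with their standard error (SE). Citrate synthase, encoded by CS (chromosome 12, 56271699 to 56300392, GRCh38), joins acetyl-CoA to oxaloacetate. CS stood at 3776, 3818 and 3594 units in the untreated libraries and at 2615, 2606 and 2463 with salinomycin. All salinomycin libraries were thus below all untreated ones, and the log2 change was -0.54 (SE 0.049; limma adjusted p = 6.34e-07). CS kept this direction and passed in all 16 alternative analyses, with log2 changes from -0.63 to -0.35. CS overlaps a protein-coding gene on the same strand, AC073896.1, and an antisense gene, AC073896.2. Neither was analysed here, and reads of the shared stretch could have been split or dropped in counting, so the level of CS is uncertain to that extent.

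Isocitrate is oxidised by an NAD-dependent enzyme, whose catalytic subunit is IDH3A, and by the NADP-dependent enzyme IDH2, which supplies mitochondrial NADPH. IDH3A (chromosome 15, 78131498 to 78171949) had 1459, 1575 and 1449 untreated units and 2119, 2173 and 2155 units with salinomycin, a 1.44-fold rise (log2 change 0.52, SE 0.052; limma adjusted p = 1.3e-06). IDH2 (chromosome 15, 90083045 to 90102504) had 970, 893 and 890 units and then 1336, 1485 and 1618, a 1.61-fold rise (log2 change 0.69, SE 0.072; limma adjusted p = 2.53e-06). Neither gene overlapped between groups, and the 3 salinomycin values of IDH2 were spread more widely than those of IDH3A (SD 141 and 27.6 units). Both ends of IDH3A overlap genes on the other strand, CIB2 and ACSBG1, and whether counting used strand was not given in the sources used here. CIB2 had at most 377 untreated and 127 salinomycin units, and ACSBG1 at most 1.06 and 0.939. A non-coding RNA gene on the same strand, AC090260.1, also lies within IDH3A. It was not analysed here, so the level of IDH3A is uncertain to that extent.

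OGDH (chromosome 7, 44606572 to 44709066) encodes the component that decarboxylates oxoglutarate. Its level was 2192, 2044 and 2335 units without salinomycin and 5975, 6419 and 6354 units with it. Every salinomycin library was far above the highest untreated one, and the log2 change was 1.51 (SE 0.057; limma adjusted p = 2.59e-10). Among all tested genes 8.86% had a larger rise.

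SUCLG1 (chromosome 2, 84423523 to 84460045) encodes the alpha subunit that both forms of succinyl-CoA ligase share, the step that makes ATP or GTP directly. It went from 1732, 1634 and 1501 units to 2997, 3255 and 3210 units, a 1.95-fold rise (log2 change 0.96, SE 0.061; limma adjusted p = 2.36e-08). The groups were well apart, and 17.9% of tested genes rose more.

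SDHA (chromosome 5, 218241 to 256700) encodes the flavoprotein of succinate dehydrogenase, which is also complex II of the respiratory chain. Its values were the lowest of the 9, at 152, 148 and 132 untreated units and 168, 193 and 182 units with salinomycin. The groups did not overlap, but the gap between the nearest libraries was close to the SD within groups (10.5 and 12.8 units), and the log2 change of 0.33 (SE 0.105; limma adjusted p = 0.013) was the least certain of the rises. The call was lost without salinomycin replicate 2 (log2 change 0.27; limma adjusted p = 0.067) and under upper-quartile scaling (0.24; limma adjusted p = 0.055), against adjusted p from 0.0006 to 0.067 over its 16 alternatives. GENCODE names 3 pseudogenes after SDHA, SDHAP1, SDHAP2 and SDHAP3, which were not analysed here, so that reads of SDHA could have been split or dropped in counting and its level is uncertain.

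Fumarase, the product of FH (chromosome 1, 241497603 to 241519761), hydrates fumarate to malate. FH had 1173, 1130 and 999 untreated units and 858, 905 and 994 units with salinomycin, so that the groups nearly touched. The log2 change was -0.26 (SE 0.075; limma adjusted p = 0.00708). When only library size was used for scaling it was -0.07 and did not pass (limma adjusted p = 0.395; 0.00122 to 0.395 over 16 alternatives), and in the authors' deposited table it was -0.0631 with an adjusted p of 0.527. GENCODE names 1 pseudogene after FH, FHP1, which was not analysed here.

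MDH2 (chromosome 7, 76048051 to 76067508), the mitochondrial malate dehydrogenase that regenerates oxaloacetate, was the most abundant member. It had 5791, 5492 and 5264 untreated units and 9529, 9987 and 10375 units with salinomycin. All 3 salinomycin libraries were well above all untreated ones, and the rise was 1.81-fold (log2 change 0.85, SE 0.053; limma adjusted p = 2.06e-08).

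PCK2 (chromosome 14, 24094053 to 24110598) changed most. It rose from 623, 507 and 537 units to 3098, 3307 and 3531 units (log2 change 2.58, SE 0.078; 95% interval 2.41 to 2.75; limma adjusted p = 4.13e-11). Only 2.89% of tested genes had a larger rise, and the log2 change stayed between 2.49 and 2.77 in all 16 alternatives. PCK2 lies within the span of NRL on the other strand, and NRL had 16.2 to 27.7 untreated and 38.0 to 42.2 salinomycin units, far below PCK2 in every library. The cytosolic form of the enzyme, PCK1, was below the filter on low values, at a mean of 4.29 and 3.43 units.

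To compare levels between genes, units were divided by the length of each gene's merged exons in GENCODE, which need not be the length the authors counted over. In untreated cells the order per kilobase was MDH2 (1515 units), CS (583), FH (514), OGDH (420), SUCLG1 (379), IDH2 (326), IDH3A (219), PCK2 (133) and SDHA (17.2). Among neighbours in that order only OGDH and SUCLG1 overlapped between libraries. With salinomycin the order per kilobase became MDH2 (2737 units), OGDH (1199), PCK2 (791), SUCLG1 (736), IDH2 (526), FH (429), CS (400), IDH3A (315) and SDHA (21.6). There PCK2 and SUCLG1 overlapped, and so did FH and CS. PCK2 thus moved from rank 8 to rank 3 of the 9 and CS from rank 2 to rank 7. SDHA was far below the other subunit of its catalytic pair, SDHB, which had 386 untreated and 640 salinomycin units per kilobase; the part of the pseudogenes in this gap was not tested.

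Another 12 genes encode further subunits or forms of the cycle's enzymes. Here 5 were higher, 5 lower and 2 not past the threshold, and the median log2 change was -0.09. Using only library size for scaling left 3 lower, and upper-quartile scaling gave 7 lower. A filter at a value of 50 in place of 10, or leaving out any 1 untreated library, left 4 lower. Within the NAD-dependent isocitrate dehydrogenase all 3 subunit genes rose, IDH3G 1.92-fold and IDH3B from 1465 to 1758 units beside IDH3A.

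Subunits of one complex did not always share a direction. Beside the rise of OGDH, the second component of the oxoglutarate dehydrogenase complex, DLST, went from 2752 to 2379 units (log2 change -0.21, but -0.02 and not passed when only library size was used), and MRPS36, a small protein that joins the complex's components, fell from 415 to 291 units. DLD, the third component, which other dehydrogenases share, had 1660 and 1555 units and did not pass (log2 change -0.09, but -0.18 and called lower with upper-quartile scaling, and 0.10 and not passed when only library size was used). OGDHL, a related form of OGDH, fell from 24.6 to 3.74 units, but it passed the filter on low values only through the untreated libraries. Beside SUCLG1, the GTP-forming beta subunit gene SUCLG2 fell 1.47-fold from 1441 to 979 units, and the ATP-forming one, SUCLA2, had 586 and 551 units and did not pass. SUCLA2 had a log2 change of -0.09, which was -0.18 and called lower with upper-quartile scaling and 0.10 and not passed when only library size was used. In succinate dehydrogenase, SDHB rose 1.66-fold and SDHD 1.45-fold, both with SDHA, whereas the membrane anchor SDHC went from 1398 to 1175 units (log2 change -0.25, but -0.06 and not passed when only library size was used).

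**Figure D2:**
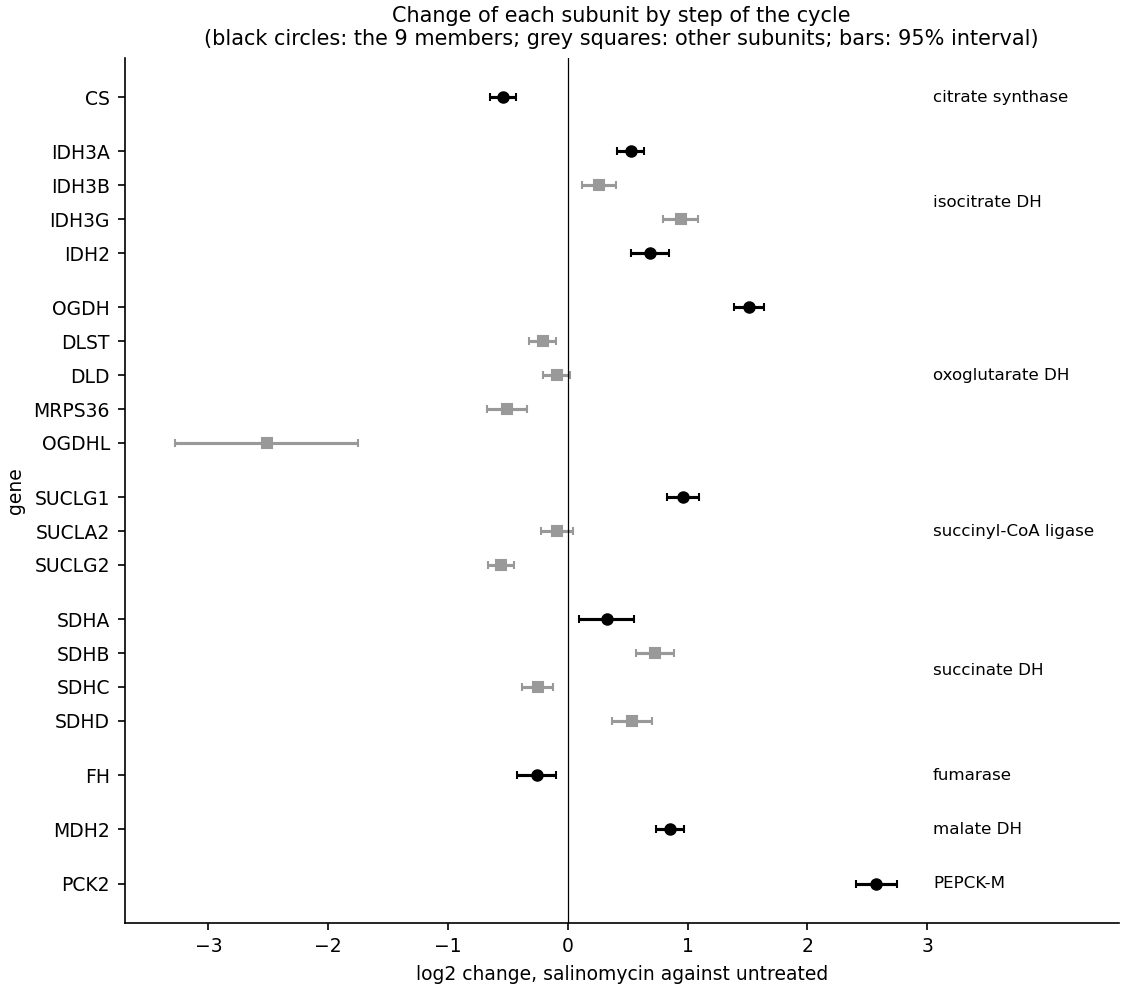
Log2 change with salinomycin of the 9 members (black circles) and other subunits (grey squares), grouped by enzyme, with 95% intervals from limma as bars. OGDH (1.51) and SUCLG1 (0.96) lie right of 0 while their partners DLST (-0.21) and SUCLG2 (-0.56) lie left of it.

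The ratio of 2 genes within a library does not depend on how libraries are scaled, so 12 pairs were compared in this way. In all 12 the 3 salinomycin ratios lay apart from the 3 untreated ones. The share among other gene pairs was not computed, and 83% of single tested genes also kept the groups apart, so this separation is common here. Each had a two-sided exact permutation p = 0.1 (adjusted p = 0.1 over the 12 pairs), the smallest that 3 against 3 libraries allow, so none can pass 0.05. OGDH to DLST went from 0.798 ± 0.078 to 2.63 ± 0.0314 (SD, n = 3 per group), a 3.30-fold change. SUCLG1 to SUCLG2 went from 1.13 ± 0.0974 to 3.22 ± 0.0818 and SUCLG1 to SUCLA2 from 2.77 ± 0.19 to 5.72 ± 0.141. Of these partners DLST and SUCLG2 were called lower and SUCLA2 was not called, while OGDH and SUCLG1 were called higher.

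PCK2 to CS, the exit from oxaloacetate against the step that consumes it, went from 0.149 ± 0.016 to 1.30 ± 0.127, an 8.70-fold change. The largest change was in PCK2 to PC, the gene of pyruvate carboxylase, which makes oxaloacetate from pyruvate: 0.689 ± 0.0836 became 8.21 ± 0.482, a log2 difference of 3.58, and PC itself fell from 814 to 404 units. Subunit pairs that rose together changed less, with IDH3A to IDH3B at 1.02 ± 0.0802 and 1.22 ± 0.057, IDH3A to IDH3G at 1.54 ± 0.206 and 1.15 ± 0.0229, and SDHA to SDHB at 0.152 ± 0.00522 and 0.115 ± 0.0046.

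Some members have a counterpart outside the mitochondrion. MDH1, the cytosolic malate dehydrogenase, rose 2.40-fold, more than MDH2, and MDH2 to MDH1 went from 1.44 ± 0.0592 to 1.09 ± 0.0157. IDH1, the cytosolic NADP-dependent isocitrate dehydrogenase, had 6160 and 5907 units and did not pass, although upper-quartile scaling called it lower and library-size scaling higher. IDH2 to IDH1 went from 0.149 ± 0.0104 to 0.250 ± 0.0224. ACLY, which splits citrate in the cytosol to supply acetyl-CoA for lipid synthesis, fell from 21258 to 11078 units, more than CS, so that CS to ACLY went from 0.176 ± 0.0137 to 0.231 ± 0.0102.

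**Figure D3:**
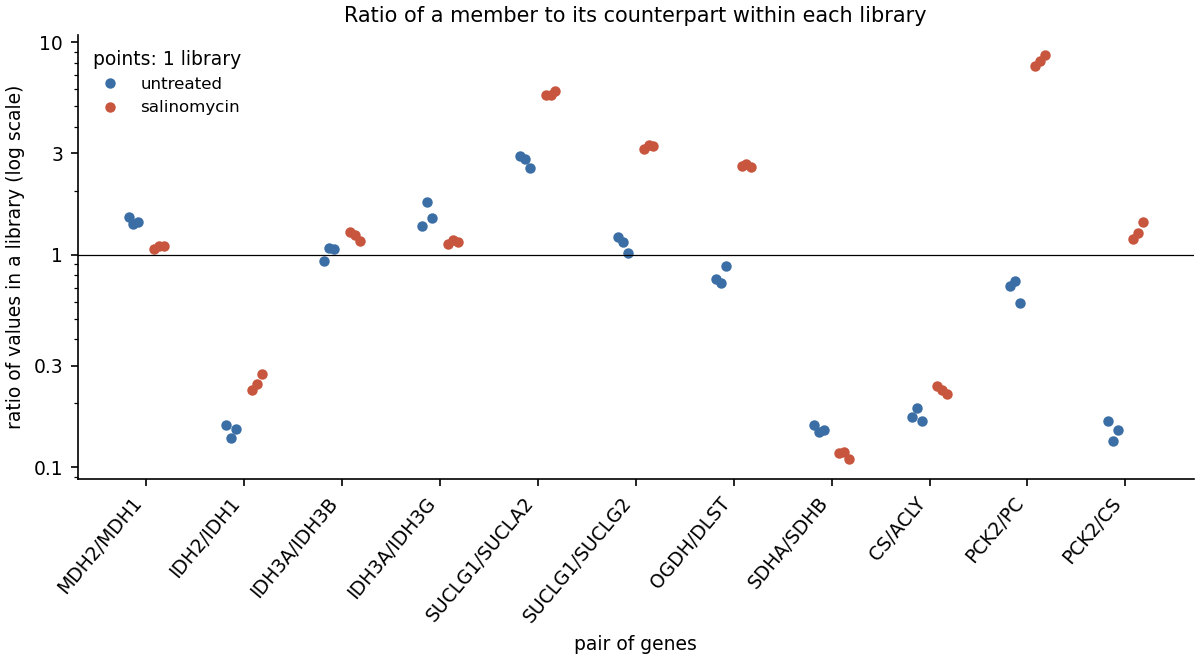
Ratio of the gene pairs reported here in each library on a log axis, untreated in blue and salinomycin in red. In every pair drawn the colours are apart, and PCK2/PC, from 0.689 to 8.21 on average, shows the widest step.

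The genes that surround the cycle moved in both directions. Pyruvate enters through the mitochondrial pyruvate carrier and the pyruvate dehydrogenase complex, whose kinases (PDK) switch it off and phosphatases (PDP) switch it on. Of 13 such genes 6 were higher and 5 lower (6 lower with upper-quartile scaling), and their median log2 change was -0.04. The carrier gene MPC1 rose 28.7-fold from 53.9 ± 8.07 to 1565 ± 66.9 units (n = 3 per group) while its partner MPC2 had 804 and 780 units and did not pass. PDP1 rose 4.09-fold, and the kinase genes PDK4 and PDK3 fell 10.6 and 2.85-fold, whereas PDK1, also a kinase gene, rose from 171 to 359 units.

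Among 14 tested genes that feed or drain the cycle, 5 were higher and 8 lower, and the median log2 change was -0.33. Upper-quartile scaling gave 4 higher, and library size alone gave 6 higher and 7 lower. Without untreated replicate 1, or without untreated replicate 2, 6 were lower. The alanine aminotransferase GPT2, which makes oxoglutarate from glutamate, rose 7.36-fold and MMUT, which delivers succinyl-CoA, 3.73-fold. The malic enzyme gene ME3 fell 2.48-fold and the glutaminase gene GLS2 fell from 12.1 to 0.313 units. GLS2 passed the filter on low values only through the untreated libraries. Of 5 tested cytosolic counterparts 3 rose (2 with upper-quartile scaling and 4 with library-size scaling) and 1 fell (2 with upper-quartile scaling), led by the aspartate aminotransferase GOT1 (3.40-fold higher) and the malic enzyme ME1 (2.11-fold lower). Of 7 carriers of cycle intermediates 3 rose and 3 fell (4 and 2 when only library size was used): the glutamate carrier SLC25A22 rose 4.74-fold and the oxoglutarate carrier SLC25A11 1.95-fold, while SLC25A13, a carrier of aspartate and glutamate, fell 2.97-fold and SLC25A21 fell from 27.8 to 12.8 units.

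Of 4 assembly factors of complex II 3 rose and 1 fell, with SDHAF1 3.03-fold and SDHAF3 2.02-fold higher and SDHAF4 2.88-fold lower. In a list of 6 lipoate, NADPH and hydroxyglutarate genes, 1 was higher, 2 were lower and 3 did not pass. With only library size for scaling 2 were higher and 1 lower, and leaving out some single libraries also left 1 lower. The hydroxyglutarate dehydrogenase gene D2HGDH was 1.74-fold higher and the transhydrogenase gene NNT fell from 1273 to 686 units.

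A list of 12 amino acid and stress genes known as targets of ATF4 had 11 higher and 1 lower, with a median of 1.58. Among the higher ones, ASNS passed the filter on low values only through the salinomycin libraries. TRIB3, a pseudokinase gene, rose 9.95-fold and CHAC1, a glutathione-degrading enzyme gene, 8.88-fold, and PSPH, of serine synthesis, fell from 890 to 659 units. PCK2 at 2.58 lay inside the range of that list (-0.44 to 3.31), as did every other member except CS (-0.54). That range is wide and held most tested genes: 61.4% of them had a larger change than FH and 2.89% a larger one than PCK2. Lying inside it therefore does not set the members apart. All 13 mitochondrially encoded genes, whose products work downstream of the cycle in the respiratory chain, fell, with a median of -3.57, MT-CO1 and MT-CO2 falling 29.2 and 19.1-fold. Their share of all values was 3.59% ± 0.192 untreated and 0.316% ± 0.0317 with salinomycin (SD, n = 3 per group), and the part of this fall in the members' changes was not tested. With scaling factors taken without those 13 genes, 7 members were again higher and 2 lower.

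**Figure D4:**
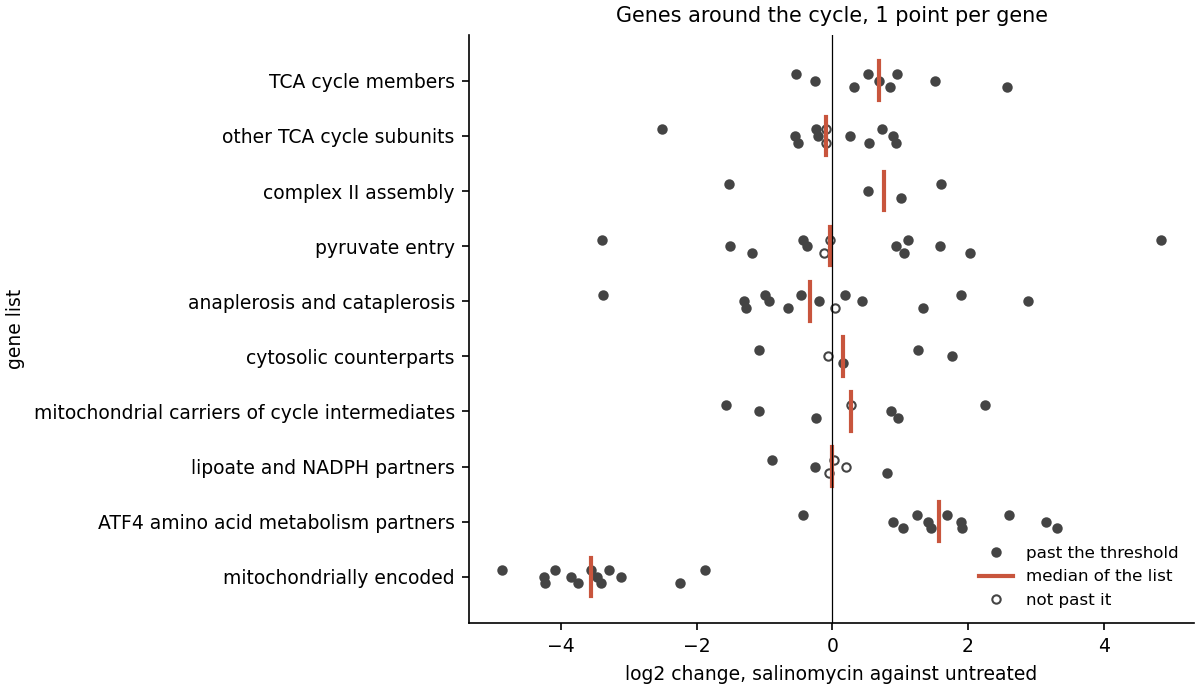
Log2 change of each tested gene in 10 lists around the cycle, filled where limma's adjusted p was under 0.05 and open where not, with the median of each list as a red line. The medians of the other TCA cycle subunits (-0.09) and of pyruvate entry (-0.04) lie near 0, that of the 9 members at 0.69.

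The list gene closest to each member was taken as the one with the smallest Euclidean distance over the 6 libraries between log2 values centred on the untreated mean, among 73 genes. For PCK2 it was GPT2 (distance 0.55), the least close of the 9. For OGDH it was SHMT2, a mitochondrial serine hydroxymethyltransferase gene (0.15), for SUCLG1 it was SLC25A11 (0.11), for CS it was MRPS36 (0.13) and for FH it was SDHC (0.11). For MDH2, IDH2, IDH3A and SDHA they were D2HGDH (0.13), SDHB (0.18), SDHD (0.20) and IDH3B (0.16). With only 2 conditions such closeness mostly restates an equal change.

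**Figure D5:**
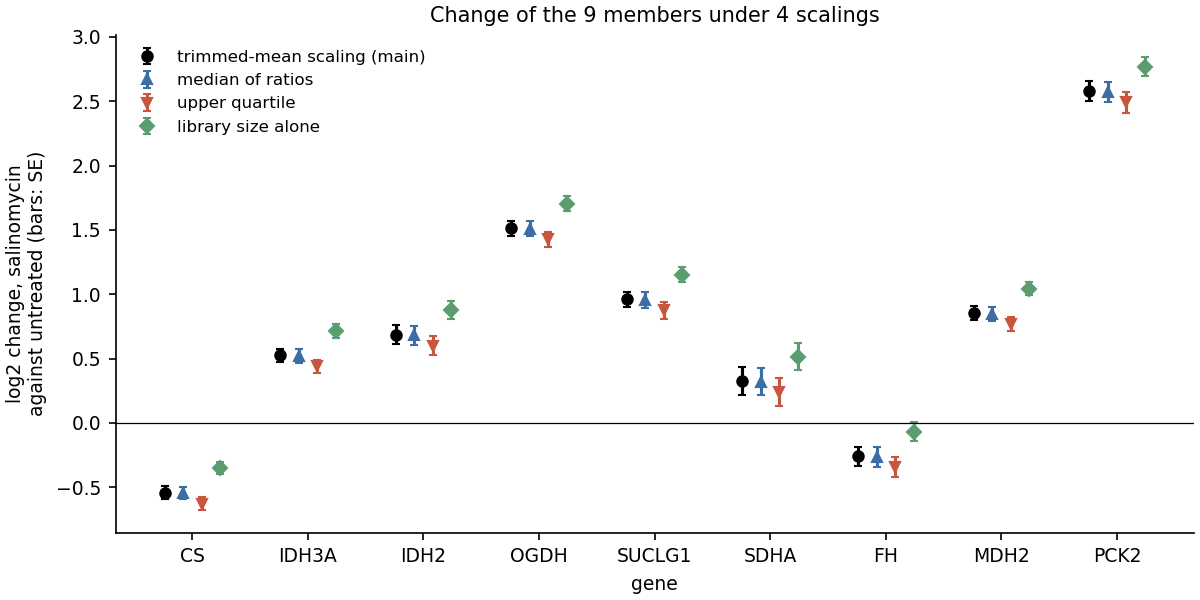
Log2 change of the 9 members under 4 ways of scaling the libraries, with the SE from limma as bars. Library-size scaling raises every value by about the same amount; all 9 keep their sign, FH comes closest to 0 (-0.07), and PCK2 stays highest (2.49 to 2.77).

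In the authors' deposited table of gene sets, 9 sets were named for the cycle. Of these, 8 had in the authors' deposited table a normalised enrichment score above 0, and 4 of the 8 had an adjusted p under 0.05, with scores from 1.685 for the gene ontology set to 1.707 for the KEGG set (adjusted p = 0.0331 and 0.0276 there). The 1 set below 0 in the authors' deposited table joins the cycle with respiratory electron transport (-1.475, adjusted p = 0.0191). These sets were scored on the same 6 libraries and are not independent of the values above.

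Deposited totals were within 0.693% of each other, and reads estimated from the rounding steps ranged from 13540156 to 19641546 per library. All 8 epithelial and A549 genes checked had values (summed level 642640 to 667069 untreated and 112771 to 123377 units with salinomycin). Of these 7 fell, AKR1B10 and ALDH1A1 most (17.6 and 7.20-fold), and KRT19 rose 1.66-fold. For other cell types 2 of 5 leukocyte genes (193 to 223 and 43.1 to 58.2 units in sum, with CD14 lower and LYZ higher), 5 of 5 fibroblast genes (830 to 1158 and 471 to 511 units, with all 4 tested ones lower, COL3A1 and THY1 most) and 3 of 4 endothelial genes (9.60 to 15.1 and 2.82 to 10.2 units) had values, and the others were not analysed here. LYZ passed the filter on low values only through the salinomycin libraries, and the fibroblast genes COL3A1 and LUM only through the untreated ones. The part of the marker changes in the members' values was not tested.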

How the data were processed

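RNA-seq values of 6 libraries were used, 3 per group. Reads were placed on GRCh38 per the submitters' processing notes; the aligner, the counter, its strand setting and the gene models are not given in the sources used here. As deposited, signal values were whole numbers rescaled by the authors to near equal totals, with a lowest value of 1, which was subtracted. Beside them stood, per the file headers, the authors' log2 fold changes, log10 means, linear fold changes (a ratio), a test score and p-values, and a second deposited table held enrichment scores and p-values per gene set.

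Values were scaled by a trimmed mean of log ratios (30% of ratios and 5% of levels trimmed). Genes reaching a value of 10 in 3 or more libraries (13088 of 16670, all 9 members among them) were tested on a log2 scale after 1 was added, so that fold changes are on that scale and understate changes of low genes, with limma 3.58.1 in R 4.3.3, its trend option and p-values adjusted by Benjamini-Hochberg over all tested genes. The fit was checked on simulated data in which few genes changed, in random directions. That check does not bear on the choice of scaling here, where most tested genes were called. Ratios within a library were compared by exact permutation. Within groups, chi-square divided by genes was 2.79 to 6.26 for each pair of libraries, so none was treated as a repeat. Reads were estimated by likelihood from steps in low values; they are approximate and entered no test. Coordinates and exon lengths are those of GENCODE 29 on GRCh38, and promoters are from RefSeq on GRCh38.p14. Alternatives were other scalings, filters, pseudocounts of 0.5 and 8, limma-voom weights, a replicate block, and the removal of single libraries.

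The members, gene lists and rules were chosen with earlier results of these data known. Named genes were the 9 members, the 2 largest changes in each direction of each other list, and the closest list gene of each member. The other subunits of the cycle, overlapping genes, members of the compared pairs, MPC2, PDK1, PCK1, ASNS and LUM were named in addition, after their values were seen. Some genes of the lists, and a pair among the 12 compared, are not reported here.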

Additional observations from a re-analysis of the deposited data

How the results depend on the processing

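Over the 9 members and 16 alternatives, 141 log2 changes kept their direction and side of the threshold, none changed sign, and 3 no longer passed: SDHA under upper-quartile scaling and without salinomycin replicate 2, and FH with scaling by library size alone. In that last scaling 1 member was called lower, CS, in place of 2, and all tested genes had a median of 0.21 in place of 0.02 (log2), with 6461 genes higher and 4353 lower. Leaving out each library in turn gave 6 to 7 members higher and 2 lower, with 4904 to 5385 genes higher and 4824 to 5139 lower overall. The log2 differences of the 12 within-library ratios kept their sign in all 84 alternatives. Among counts in the gene lists 280 stayed within 1.5 times and 8 did not. No pairing of libraries by replicate number was seen, though 3 libraries per group cannot exclude it. Same-numbered libraries had deviations correlated at -0.172, -0.0131 and -0.0326, and not every library correlated best with its own number. The fit with the replicate block called 7 members higher and 2 lower, with 5325 and 5130 of all genes. SDHA, at 144 untreated units, is the member whose low level limits precision most.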
